A study of Mus musculus with 16 samples.

Results

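Tight junctions and adherens junctions seal the contacts between neighbouring brain endothelial cells (bECs) and so limit what passes between the cells from blood to brain. In tight junctions, claudins, occludin and angulins span the membrane, junctional adhesion molecules of the immunoglobulin family sit beside them, and zonula occludens proteins tie them to actin. In adherens junctions, VE-cadherin holds the cells together through catenins. The genes described here are 9 of the 37003 in the table: the tight junction membrane genes Cldn5, Cldn12, Ocln and Lsr, the scaffold gene Tjp1, the adhesion molecule genes Jam2, F11r and Esam, and the adherens junction gene Cdh5. They were chosen by symbol alone, and all 9 passed the filter on low counts.

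The counts came from 16 libraries of bECs that had been enriched on CD31 and then sorted for CD31 without CD45 and without the dead-cell dye DAPI. There were 4 libraries for each combination of genotype (CTRL or YT-iKO) and surgery (sham or MCAo). Brains were taken 72 hours after sham surgery or after occlusion of the middle cerebral artery (MCAo) for 30 min. Both genotypes were tamoxifen-treated adult mice of both sexes with floxed alleles of Yap and of Wwtr1, the gene of TAZ. The labels give YT-iKO as Pdgfb-iCreERT2+/-:Yapfl/fl:Wwtr1fl/fl, in which Cre under the control of Pdgfb acts in endothelial cells after tamoxifen, and CTRL were littermates without the Cre transgene. Each library was a pool of several mice, so the p values below measure the spread between pools, and the sexes within each pool are not given in the sources used here. The comparisons asked how loss of YAP and TAZ and how stroke altered the junction genes.

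The libraries held 11418262 to 23074547 counts, of which the 9 genes took 0.489% to 0.674%. Yap1 measured 100.6 to 114.7 CPM (counts scaled to a common library total) in the 8 CTRL libraries and 42.7 to 54.9 CPM in the 8 YT-iKO libraries, and Wwtr1 measured 241 to 347 CPM and 60.4 to 102 CPM, so neither overlapped between genotypes. All 14 endothelial identity genes were detected in every library, and their summed level was 13812 to 19006 CPM. Markers of other cells were also present, with 622 to 1316 CPM for 8 pericyte genes, 59.2 to 128 CPM for 6 astrocyte genes and 12.6 to 109 CPM for 7 genes of epithelium, ependyma and choroid plexus. Ptprc, the gene of the CD45 antigen removed by the sort, was at 0.279 to 14.1 CPM. In RNA from bulk samples, fewer cells of a type and less RNA per cell cannot be told apart.

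The levels depended on the scaling, so 2 sets of TMM factors, which bring libraries to a common scale, were used. Fold changes are on the second scale unless the first is named. Factors over all 31085 genes tested, the scale fixed as the main one, ran from 0.743 to 1.4. Factors over genes that averaged 10 CPM or more, the abundant-gene scale, ran from 0.938 to 1.04. Counts on 1466 olfactory, vomeronasal and taste receptor genes, which bECs should hardly use, ranged from 0.0308 to 0.576 CPM per kb of exon between libraries. The 5 libraries over 0.3 (CTRL MCAo 2 and 3, YT-iKO sham 3, YT-iKO MCAo 2 and 3) had all-gene factors of at least 1.14, and the other 11 had at most 1.08. With all-gene factors each junction gene was below its mean over all libraries in those 5, except Jam2 in YT-iKO MCAo 3. With abundant-gene factors the levels there lay on both sides of the mean, although some genes, Esam and Cdh5 among them, were below it in most of these libraries. Removing the counts estimated as background, an alternative chosen after seeing the data, moved none of 54 exact permutation tests of the 9 genes on the abundant-gene scale across 0.05. Leaving out the 2 libraries with the most receptor counts, chosen likewise, gave calls with all-gene factors for F11r after MCAo averaged over genotypes (0.48, adjusted p = 0.0333) and for Ocln by genotype averaged over surgeries (−0.37, adjusted p = 0.0774), in fits that called 1372 and 271 genes of the whole table against 383 and 87 with all libraries. From the density of receptor counts, 0.96% to 16.5% of the counts on Cldn12 and at most 1.9% of those on any other of the 9 genes could be background. CPM below are on the abundant-gene scale unless stated. The exceptions, above and below, are Ptprc and the summed levels of the endothelial identity genes and of the markers of other cells. Their CPM and permutation p used library totals alone, without TMM factors.

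**Figure D1:**
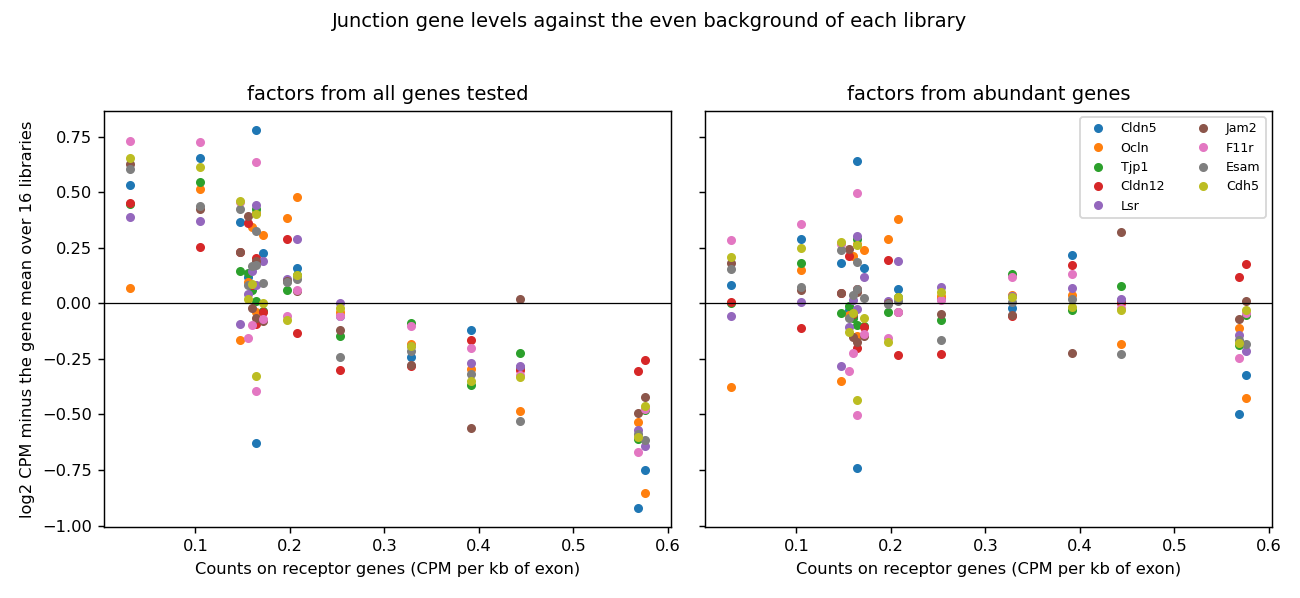
Level of each junction gene in the 16 libraries (log2 CPM minus that gene's mean) against the counts on receptor genes (CPM per kb of exon) with all-gene factors (left) and abundant-gene factors (right). Points are libraries coloured by gene. On the left the genes sit above their means in the library at 0.0308 and below them in the library at 0.576, and on the right they lie on both sides of them.

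Counts divided by exon length gave nearly the same order of levels in every group. In CTRL sham, Cldn5, the main claudin of brain endothelium, stood first with 815 ± 53.4 CPM per kb (SD, n = 4). It was followed by Cdh5 (277 ± 16.02), Tjp1 (214 ± 8.20), Esam (201 ± 2.37), Lsr (106 ± 6.40), Ocln (95.1 ± 4.87), Jam2 (64.2 ± 3.46) and F11r (32.0 ± 1.72 CPM per kb). Cldn12 came last with 3.06 ± 0.388 CPM per kb. Within CTRL sham only the neighbours Lsr and Ocln overlapped in their libraries. Tjp1 and Esam overlapped in the other 3 groups, Cdh5 and Tjp1 in YT-iKO sham, and Lsr and Jam2 in YT-iKO MCAo. The one change of rank was that of Ocln, which stood above Jam2 in CTRL sham, CTRL MCAo and YT-iKO sham but below it in YT-iKO MCAo (62.2 ± 4.63 against 75.1 ± 7.52 CPM per kb). Ocln and Jam2 overlapped in both YT-iKO groups, and did not in the CTRL groups. The counts behind these levels were 159 to 355 per library for Cldn12, 908 to 2556 for F11r and at least 2213 for the others.

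**Figure D2:**
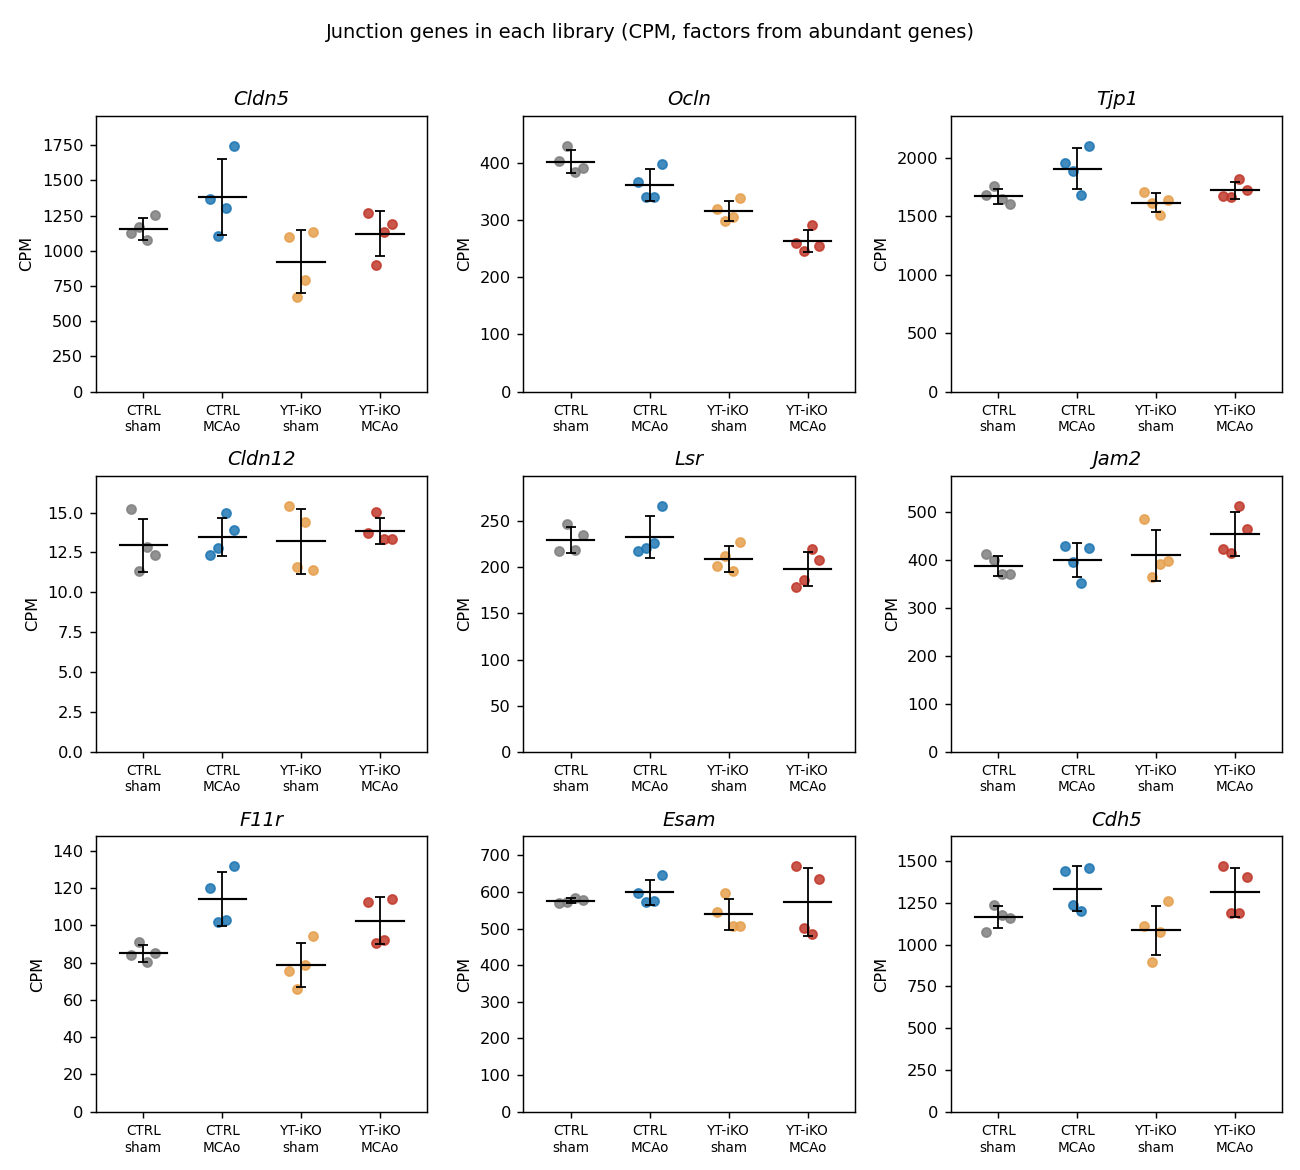
CPM of the 9 junction genes in each library (abundant-gene factors) by group. Points are the 4 libraries of a group, horizontal lines the mean and bars the SD. Ocln steps down from 402 in CTRL sham to 263 in YT-iKO MCAo, and F11r is higher in both MCAo groups than in the sham group of the same genotype.

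With all-gene factors, edgeR's quasi-likelihood test with Benjamini-Hochberg adjustment called none of the 9 genes at an adjusted p under 0.1 in any of 7 comparisons. It called few genes of the whole table: 0.0965% between genotypes in sham mice and 0.0708% after stroke, 0.216% between surgeries in CTRL and 0.318% in YT-iKO, 0% for the interaction, 1.23% for MCAo averaged over genotypes and 0.28% for genotype averaged over surgeries. Before adjustment edgeR's values passed 0.05 for 1 gene with MCAo averaged over genotypes, F11r (adjusted p = 0.730), for 1 with genotype averaged over surgeries, Ocln (adjusted p = 0.996), and for 0 in the other comparisons. DESeq2 with its own factors called 1 of the 9, Ocln, lower in YT-iKO in the average over surgeries (log2 fold change −0.49, adjusted p = 0.0664), where it called 244 genes of the whole table against 87 with edgeR, and none elsewhere. With abundant-gene factors edgeR called Ocln and F11r only. The 95% intervals of the fold changes were narrower on that scale, for Ocln after sham −0.51 to −0.19 against −0.998 to 0.020 on the all-gene scale.

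Ocln encodes occludin, a tight junction membrane protein, and was the gene with the clearest difference between genotypes. It lies on the minus strand at chr13:100496507-100552718 (GRCm38), with 4222 exonic bases in 10 blocks. In CTRL sham its 4 libraries measured 403, 430, 383 and 390 CPM. In YT-iKO sham they measured 319, 299, 306 and 338 CPM. In CTRL MCAo they measured 366, 339, 340 and 397 CPM, and in YT-iKO MCAo 259, 246, 291 and 254 CPM. All 8 YT-iKO libraries were therefore below every CTRL library of the same surgery, and the highest YT-iKO MCAo library was below the lowest YT-iKO sham library.

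On the abundant-gene scale edgeR called Ocln lower in YT-iKO, in sham mice (log2 fold change −0.35 ± 0.077 SE, adjusted p = 0.0921), after MCAo (−0.46 ± 0.077, adjusted p = 0.00852) and in the average over surgeries (−0.40 ± 0.055, adjusted p = 0.000493). It was the only one of the 9 genes called in these comparisons, where 1.19%, 1.93% and 5.78% of the 9123 tested genes averaging 10 CPM or more were called. An exact permutation test (two-sided, on log2(CPM + 1)) gave p = 0.0286 for each surgery, the smallest that 4 against 4 libraries allow, and p = 0.000408 in the average stratified by surgery, the smallest of its 4900 assignments. The groups of 7.8% of those genes after sham and of 8.54% after MCAo did not overlap either. The call after sham was lost in 13 of the 16 fits that left out 1 library and kept without CTRL MCAo replicate 4 or YT-iKO MCAo replicate 2 or 3 (adjusted p of 0.0716 to 0.360 over the 16). It was also lost without the 2 libraries with the most receptor counts (adjusted p = 0.218) and with replicate number as a block. The call after MCAo and that in the average held in all 16 fits that left out 1 library. The fold changes of Ocln with all-gene factors were −0.49 ± 0.25 after sham, −0.47 ± 0.25 after MCAo and −0.48 ± 0.17 in the average (adjusted p = 0.990, 1.00 and 0.996). On that scale the groups after MCAo overlapped (exact permutation p = 0.200), since YT-iKO MCAo replicate 4 at 346.7 CPM lay above CTRL MCAo replicates 2 and 3 at 290.9 and 269.3 CPM, and the groups after sham did not (exact permutation p = 0.0286).

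Ocln was also lower after MCAo in the average over genotypes on the abundant-gene scale (log2 fold change −0.21 ± 0.055, adjusted p = 0.038), a comparison in which 15.4% of abundant genes were called. With all-gene factors the value was −0.22 ± 0.17 (adjusted p = 1.00). By genotype the values were −0.16 ± 0.077 in CTRL (adjusted p = 0.722) and −0.26 ± 0.077 in YT-iKO (adjusted p = 0.157), neither called, although that in YT-iKO was called without YT-iKO MCAo replicate 3 (−0.32, adjusted p = 0.0615) and by DESeq2 with abundant-gene factors (adjusted p = 0.00637). Of the abundant genes, 8.43% did not overlap between the YT-iKO groups, as Ocln did not, and its CTRL groups overlapped. The interaction was −0.11 ± 0.11 (adjusted p = 1.00, 95% interval −0.34 to 0.12), so a difference of the stroke response between genotypes was not detected. Without CTRL sham replicate 2 or YT-iKO MCAo replicate 4 the call in the average was lost, with adjusted p up to 0.119. The scaling moved the median fold change of all genes, for genotype after sham from 0.11 to 0.30 and for genotype averaged over surgeries from 0.087 to 0.21. Relative to that median, Ocln was lower in YT-iKO by a log2 difference of −0.57 with all-gene factors and −0.61 with abundant-gene factors in the average. The other 8 genes were below that median too. They ranged from −0.030 (Jam2) to −0.46 (Cldn5) with all-gene factors and from −0.078 (Jam2) to −0.52 (Cldn5) with abundant-gene factors.

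Shares within the set need no scaling between libraries. The log2 ratio of Ocln to the geometric mean of the other 8 genes was 0.30, 0.37, 0.27 and 0.26 in CTRL sham, and 0.0038, 0.0070, −0.010 and −0.029 in CTRL MCAo. It was −0.036, 0.11, 0.051 and 0.071 in YT-iKO sham, and −0.45, −0.35, −0.21 and −0.49 in YT-iKO MCAo. None of the 4 pairs of groups that share a genotype or a surgery overlapped. The difference between genotypes was −0.25 in sham mice and −0.37 after stroke, and that between surgeries was −0.31 in CTRL and −0.42 in YT-iKO, each at the smallest p the exact permutation test allows (0.0286). Averaged ratios gave −0.31 for genotype and −0.37 for MCAo, each with an exact stratified permutation p = 0.000408, the smallest possible. These ratios were chosen after the data had been seen. Since they compare a gene with the other 8, a change in any of these shifts the ratio too.

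The summed endothelial identity genes were also lower in YT-iKO, at 13874 to 15330 CPM against 15472 to 16877 CPM after MCAo (exact permutation p = 0.0286) and at 13812 to 16943 CPM against 16826 to 19006 CPM after sham (exact permutation p = 0.0571). Between surgeries the sum averaged 18106 CPM in CTRL sham and 16024 CPM in CTRL MCAo (exact permutation p = 0.0571). In YT-iKO the sum averaged 15503 CPM after sham and 14491 CPM after MCAo (exact permutation p = 0.229). Flt1 had the highest mean level of the 14 genes and so weighed most in the sum. Gene by gene on the abundant-gene scale, the median fold change for MCAo was −0.0035 in CTRL, with 7 of 14 above 0 and 0 called. In YT-iKO this median was 0.031, with 8 of 14 above 0 and 1 called higher. Of the 14 genes, 2 were called higher and 1 lower after MCAo averaged over genotypes on the abundant-gene scale. With the libraries scaled to these 14 genes, the fold change of Ocln for genotype averaged over surgeries was −0.14 (adjusted p = 0.0888, edgeR) and its fold changes within each surgery were not called. For genotype averaged over surgeries that scaling called 6712 of the 31085 genes, against 87 with all-gene factors. The part of the identity genes in the difference of Ocln was otherwise not tested.

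The 250 bases that precede the first annotated base of Ocln are given because, with either set of TMM factors, this gene differed most between genotypes (RefSeq promoter window, GRCm38.p6, chr13:100552719-100552968, minus strand, 5′ to 3′ along the gene):

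Ocln: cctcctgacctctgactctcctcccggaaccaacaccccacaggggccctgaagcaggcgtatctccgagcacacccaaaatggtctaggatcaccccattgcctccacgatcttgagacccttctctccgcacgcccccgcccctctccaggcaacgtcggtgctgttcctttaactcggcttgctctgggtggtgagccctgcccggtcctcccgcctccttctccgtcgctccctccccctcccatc

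No letters are in capitals because none of 5 motifs searched on both strands matched in either RefSeq window of Ocln (250 bases before to 50 after the start). The motifs were GGAATG, the core bound by TEAD factors that partner YAP and TAZ, TGTTTAC (forkhead), ACAATG (SOX), ACCGGAAGT (a long ETS form) and CTTTGAT (TCF/LEF), which stand in 14.7%, 3.65%, 12.6%, 1.1% and 3.73% of all 32851 mouse windows. That these letters are not in a window says nothing of factors bound there or elsewhere.

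F11r encodes JAM-A, a junctional adhesion molecule of endothelium, epithelium, platelets and leukocytes, and was the one of the 9 that edgeR called higher after stroke with all libraries and abundant-gene factors. It lies on the plus strand at chr1:171437535-171464603, with 2663 exonic bases in 9 blocks. Its libraries measured 84.1, 91.2, 80.1 and 85.1 CPM in CTRL sham and 120, 102, 103 and 132 CPM in CTRL MCAo. In YT-iKO sham they measured 75.7, 66.1, 78.9 and 94.6 CPM, and in YT-iKO MCAo 113, 90.7, 92.3 and 114 CPM. The CTRL groups did not overlap, as for 17.2% of abundant genes, whereas YT-iKO sham replicate 4 lay above YT-iKO MCAo replicates 2 and 3.

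On the abundant-gene scale F11r was called higher after MCAo in CTRL (log2 fold change 0.42 ± 0.11, adjusted p = 0.0909) and in the average over genotypes (0.40 ± 0.079, adjusted p = 0.00604). In YT-iKO the value was 0.38 ± 0.11 (adjusted p = 0.161) and was not called. Of the fits that left out 1 library only that without YT-iKO sham replicate 4 called it (0.48, adjusted p = 0.0632), and DESeq2 with abundant-gene factors did so with all libraries (adjusted p = 0.0299). Of the abundant genes 5.45%, 15.4% and 5.44% were called in these 3 comparisons. The exact permutation p was 0.0286 in CTRL, 0.0857 in YT-iKO and 0.00122 in the stratified average. The interaction was −0.042 ± 0.16 (adjusted p = 1.00, 95% interval −0.38 to 0.29), and 0 of the 9 genes and 0% of the abundant genes were called for it on either scale. The call in CTRL was lost in 8 of the 16 fits that left out 1 library (CTRL sham 1, 2, 3 or 4, CTRL MCAo 1 or 4, YT-iKO sham 1 or 3), with adjusted p up to 0.355, and that in the average held in all 16. With all-gene factors the average was 0.42 ± 0.19 (adjusted p = 0.730), with 0.36 in CTRL and 0.49 in YT-iKO (adjusted p = 1.00 for both), and limma-voom, which also weights libraries by quality, gave F11r −0.022 ± 0.11 (adjusted p = 0.873), so that its direction was not kept by every method. The ratio to the other 8 genes was higher by 0.34 in CTRL, 0.30 in YT-iKO and 0.32 in the average (exact permutation p = 0.0286, 0.0571 and 0.000816).

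JAM-A is also a platelet and leukocyte protein, and markers of these cells were low. The 4 platelet genes summed to 5.08 to 6.46 CPM in CTRL sham and 7.93 to 11.9 CPM in CTRL MCAo (exact permutation p = 0.0286), and to 5.39 to 18.3 and 9.71 to 16.6 CPM in the YT-iKO groups (p = 0.314, exact). Ptprc measured 3.02 to 5.14 CPM in CTRL sham and 3.59 to 11.3 CPM in CTRL MCAo (exact permutation p = 0.286). The 7 genes of epithelium, ependyma and choroid plexus were at 16.9 to 31.8 CPM in CTRL sham and 18.3 to 109 CPM in CTRL MCAo (exact permutation p = 0.114). The part of these cells in the level of F11r was not tested. The 224 bases before its first annotated base (chr1:171437311-171437534, plus strand, RefSeq window, GRCm38.p6) are shown because of that call, and again held no match to the 5 motifs:

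F11r: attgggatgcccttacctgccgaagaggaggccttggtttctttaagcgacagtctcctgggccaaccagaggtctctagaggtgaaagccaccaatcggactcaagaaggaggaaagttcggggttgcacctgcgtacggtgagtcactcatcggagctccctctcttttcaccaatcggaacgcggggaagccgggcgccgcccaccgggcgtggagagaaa

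**Figure D3:**
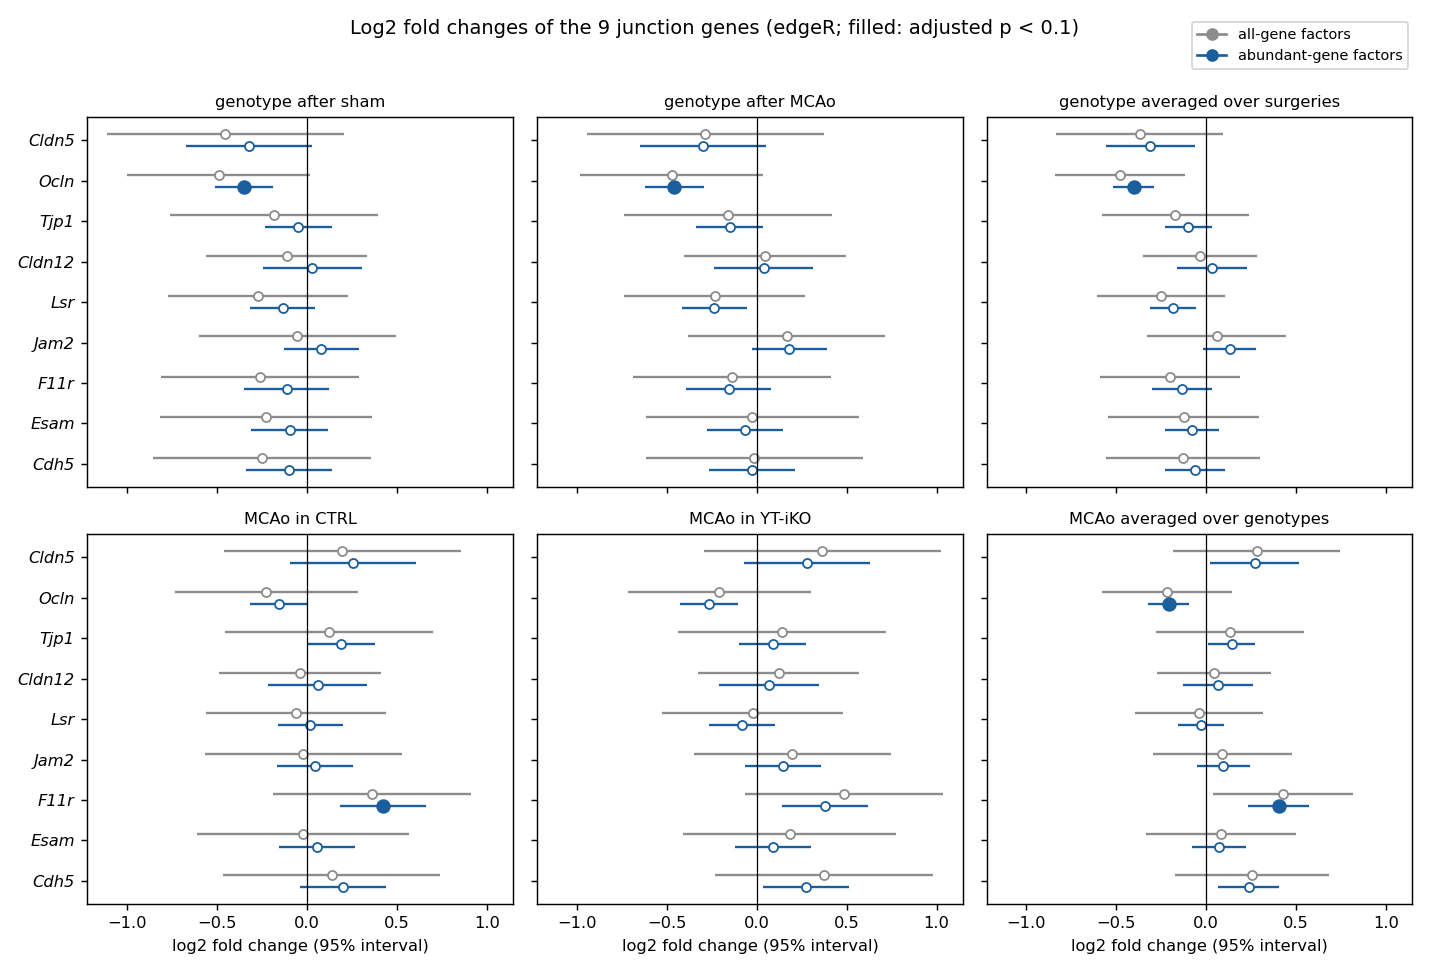
Log2 fold changes of the 9 junction genes with 95% intervals for 6 comparisons (edgeR, 16 libraries), with all-gene factors in grey and abundant-gene factors in blue. Filled circles mark an adjusted p under 0.1. Filled circles stand only at Ocln, at −0.35, −0.46, −0.40 and −0.21, and at F11r, at 0.42 and 0.40, all with abundant-gene factors.

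The other 7 genes were not called by edgeR on either of the 2 scales with all libraries and the 4 groups as the only terms. With all-gene factors their fold changes for genotype averaged over surgeries were −0.37 for Cldn5, −0.25 for Lsr, −0.033 for Cldn12, −0.17 for Tjp1, 0.057 for Jam2, −0.13 for Esam and −0.13 for Cdh5. For MCAo averaged over genotypes they were 0.28, −0.041, 0.043, 0.13, 0.090, 0.081 and 0.25 in the same order. Some uncalled values changed sign from all-gene to abundant-gene factors. For genotype these were Cldn12 (−0.11 to 0.029) and Jam2 (−0.053 to 0.079) after sham and Cldn12 (−0.033 to 0.034) in the average. For MCAo in CTRL they were Cldn12 (−0.037 to 0.059), Esam (−0.021 to 0.055), Jam2 (−0.020 to 0.045) and Lsr (−0.061 to 0.020). Scaling to the endothelial identity genes, which were themselves lower in YT-iKO, turned 4 of the 7 to higher in YT-iKO in the average and called them, namely Tjp1 (0.17), Cldn12 (0.30), Esam (0.18) and Cdh5 (0.20, adjusted p = 0.0640, 0.0835, 0.0959 and 0.0499). That fit called 6712 of the 31085 genes in this comparison, against 87 with all-gene factors.

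Cldn5 (chr16:18776847-18778262, plus strand, 1 exon of 1416 bases) had, in YT-iKO sham, the largest relative spread of the 9 genes in any group. It measured 1124, 1170, 1074 and 1252 CPM in CTRL sham and 1367, 1103, 1301 and 1747 CPM in CTRL MCAo. In YT-iKO sham it measured 1096, 671, 794 and 1133 CPM, and in YT-iKO MCAo 1270, 896, 1132 and 1187 CPM. All pairs of groups overlapped, and YT-iKO sham replicates 2 and 3 lay below every CTRL library. The fold change for genotype averaged over surgeries was −0.31 ± 0.12 (unadjusted p = 0.0173, adjusted p = 0.364, edgeR on the abundant-gene scale), and for MCAo averaged over genotypes 0.27 ± 0.12 (adjusted p = 0.363), while DESeq2 with abundant-gene factors called the former (adjusted p = 0.0666). So did edgeR with replicate number as a block, although these numbers were not taken to pair the libraries. The coefficient of variation of Cldn5 was 24.6% in YT-iKO sham and 6.55% in CTRL sham, where that of Cldn12 was 12.7%. A fold change between −0.56 and −0.062 is thus what the 95% interval for genotype covers.

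Lsr encodes angulin-1, which marks the contacts where 3 cells meet. It lies on the minus strand at chr7:30957770-30973464, and 971 of its 2172 exonic bases overlap the antisense genes Gm17077 and Gm4673, whose reads cannot be told apart from those of Lsr without strand. It measured 218 to 247 CPM in CTRL sham, 217 to 267 CPM in CTRL MCAo, 196 to 228 CPM in YT-iKO sham and 179 to 220 CPM in YT-iKO MCAo. The fold change for genotype averaged over surgeries was −0.18 ± 0.061 (unadjusted p = 0.00754, adjusted p = 0.239, exact stratified permutation p = 0.00531), not called by edgeR on the abundant-gene scale. DESeq2 with abundant-gene factors called it (adjusted p = 0.0338). Lsr held the one motif match among the 9 windows of the 6 genes with an entry (Cldn5, Ocln, Tjp1, Cldn12, Lsr and F11r). It is the TEAD core read on the opposite strand, in capitals in the 30 bases shown here (chr7:30973420-30973449, minus strand, GRCm38.p6), 39 bases into the transcript:

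Lsr: tgtgtacctgggcggttcCATTCCcgggag

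Cldn12, a claudin found in brain endothelium and in other tissues (chr5:5489537-5514958, minus strand), was at 11.3 to 15.4 CPM over all 16 libraries. Its 6 fold changes between groups ran from 0.029 to 0.069 on the abundant-gene scale with SE of 0.092 to 0.13, and none was called. Tjp1 encodes ZO-1, which binds claudins and occludin inside the cell (chr7:65296165-65527781, minus strand, 31 exonic blocks). It measured 1606 to 1756 CPM in CTRL sham, 1684 to 2102 CPM in CTRL MCAo, 1512 to 1707 CPM in YT-iKO sham and 1663 to 1819 CPM in YT-iKO MCAo. The fold change of Tjp1 after MCAo averaged over genotypes was 0.14 ± 0.063 (adjusted p = 0.382, edgeR on the abundant-gene scale), called by DESeq2 with the same factors (adjusted p = 0.0236). For the level of Tjp1 in that comparison the exact stratified permutation p was 0.00776 on the abundant-gene scale. Against the other 8 genes the share of Tjp1 moved by 0.027 (exact stratified permutation p = 0.534).

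Jam2, the gene of JAM-B (chr16:84774123-84825928, plus strand), was the one gene of the 9 whose ratio to the others was higher in YT-iKO with an exact p under 0.05. Its level was 412, 399, 370 and 371 CPM in CTRL sham and 486, 364, 391.8 and 398 CPM in YT-iKO sham. It was 428, 396, 352 and 426 CPM in CTRL MCAo and 424, 414, 513 and 466 CPM in YT-iKO MCAo. These levels overlapped, and the fold change for genotype averaged over surgeries was 0.13 ± 0.070 (adjusted p = 0.690, edgeR on the abundant-gene scale). The ratio to the other 8 genes was higher by 0.22 after sham and by 0.35 after MCAo (exact permutation p = 0.0571 and 0.0286) and by 0.29 in the average (exact stratified permutation p = 0.000816). With the libraries scaled to the endothelial identity genes, edgeR called Jam2 higher in YT-iKO after sham (0.36, adjusted p = 0.0502), after MCAo (0.43, adjusted p = 0.0200) and in the average (0.39, adjusted p = 0.000792). That scaling, whose own 14 genes were lower in YT-iKO, called 2355, 870 and 6712 of the 31085 genes in these comparisons, against 30, 22 and 87 with all-gene factors. Whether Jam2 was called thus depended on what the libraries were scaled to.

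Esam, an adhesion molecule of endothelium and platelets (chr9:37528078-37538319, plus strand), had the most even levels in CTRL sham, at 569 to 585 CPM with a coefficient of variation of 1.18%. It measured 572 to 648 CPM in CTRL MCAo, 508 to 596 CPM in YT-iKO sham and 486 to 671 CPM in YT-iKO MCAo, where replicates 1 and 4 were at 671 and 634 CPM and replicates 2 and 3 at 501 and 486 CPM. These last are libraries with many receptor counts. Its fold changes on the abundant-gene scale lay between −0.097 and 0.089, and none was called. For MCAo averaged over genotypes the sign of Esam changed with the method, at 0.08 with edgeR on the all-gene scale (adjusted p = 1.00) and −0.35 with limma-voom (adjusted p = 0.0149), a fit that called 17018 of the 31085 genes.

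Cdh5, the gene of VE-cadherin (chr8:104101625-104144511, plus strand), measured 1077 to 1240 CPM in CTRL sham and 1203 to 1458 CPM in CTRL MCAo. It measured 899 to 1260 CPM in YT-iKO sham and 1189 to 1472 CPM in YT-iKO MCAo. After MCAo averaged over genotypes its fold change was 0.24 ± 0.080 (unadjusted p = 0.00894, adjusted p = 0.147, edgeR on the abundant-gene scale), with an exact stratified permutation p = 0.00816. For genotype averaged over surgeries it was −0.062 ± 0.080 (adjusted p = 0.831, 95% interval −0.23 to 0.11). DESeq2 with abundant-gene factors called the MCAo difference (adjusted p = 0.0153), and edgeR did so without YT-iKO sham replicate 4 (0.28, adjusted p = 0.0816).

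**Figure D4:**
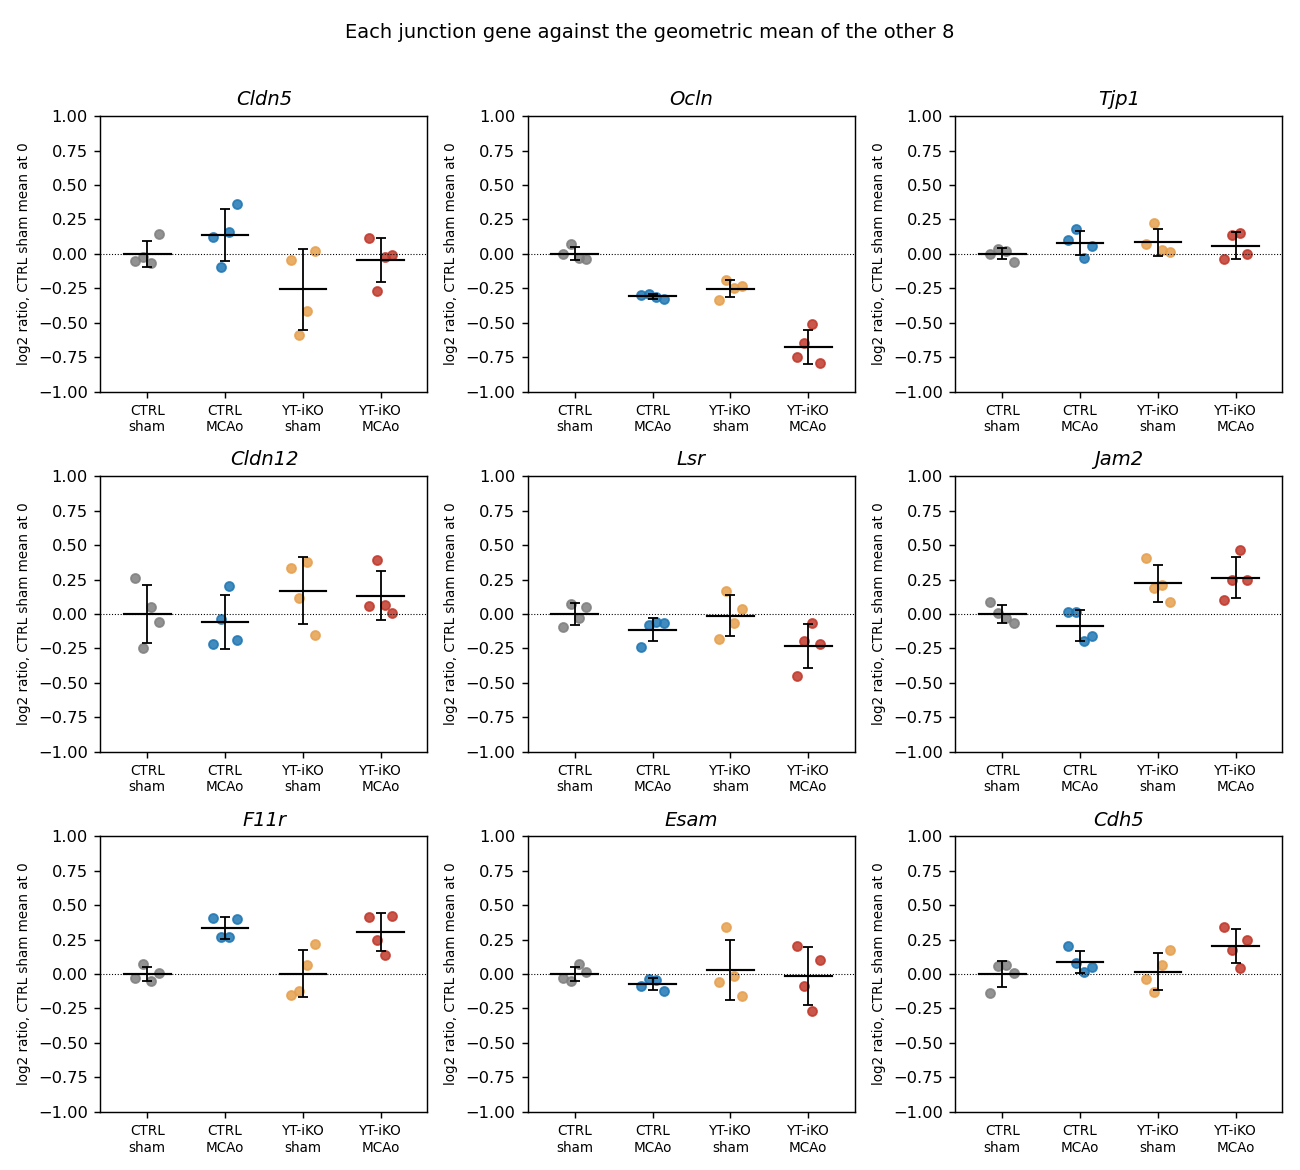
Log2 ratio of each junction gene to the geometric mean of the other 8 in each library, set to 0 at the CTRL sham mean, by group. Points are libraries, horizontal lines the mean and bars the SD. Ocln steps down with MCAo and in YT-iKO without overlap, F11r is higher in both MCAo groups, and Jam2 is higher in both YT-iKO groups.

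Over the 16 libraries the 36 pairs of the 9 genes had a median Pearson r of 0.258 on the abundant-gene scale, from −0.398 for Cldn12 and Lsr to 0.936 for F11r and Cdh5. On the all-gene scale the median was 0.817 and the lowest 0.588, values that share each library's factor. Ocln followed Lsr most closely (r = 0.787) and F11r not at all (r = −0.0051). Among the 9123 abundant genes, those with the pattern most like Ocln were Ctsh (r = 0.975), Isyna1 (r = 0.962) and Itih5 (r = 0.956), and those most like F11r were Pros1 (r = 0.970), Rpl4 (r = 0.959) and Rpl7a (r = 0.956). Cldn5 was closest to Ppp2r1a (r = 0.952), Lsr to Ripor1 (r = 0.903), Tjp1 to Dhx40 (r = 0.876), Esam to Flna (r = 0.875), Cldn12 to Dvl2 (r = 0.846) and Jam2 to Pdgfb (r = 0.811). These are descriptions over libraries of 4 groups, and a difference between groups enters each r.

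The other genes of the junction were read from 5 lists. In the average over surgeries on the abundant-gene scale, YT-iKO was called lower for 1 of 18 tight junction membrane genes tested (Igsf5, −0.50 ± 0.10), 0 of 21 scaffold genes, 5 of 21 adherens junction genes, 5 of 27 regulators and 5 of 12 genes of barrier transport and permeability. Over all 31085 genes tested 552 were called, 182 of them higher, and of the abundant genes 5.78%. Of the 14 endothelial identity genes 6 were called lower as well, with a median of −0.19. YT-iKO was called higher for Pard3, a polarity scaffold (0.35 ± 0.072), and Sox17, an endothelial transcription factor (0.32 ± 0.060). The adherens junction genes called lower were led by Ptprb, the phosphatase VE-PTP that acts on VE-cadherin (−0.65 ± 0.073), Nectin2 (−0.48 ± 0.13), Vcl, which links catenins to actin (−0.42 ± 0.068), and Ctnnb1, the gene of beta-catenin (−0.38 ± 0.068). The regulators were led by Angpt2, a ligand that loosens contacts through Tie2 (−0.98 ± 0.10), Arhgap29 (−0.48 ± 0.059), Foxo1 (−0.32 ± 0.082) and Erg (−0.24 ± 0.061). The barrier genes were led by Tfrc, the transferrin receptor (−0.89 ± 0.14), Cav1 (−0.69 ± 0.091), Slco1c1 (−0.59 ± 0.091) and Slc7a5 (−0.54 ± 0.11). The median fold changes of the 5 lists were 0.26, −0.016, −0.11, −0.075 and −0.37, and those of the 9 genes and of all genes tested −0.099 and 0.21. With all-gene factors only Angpt2 (adjusted p = 0.00266) and Tfrc (adjusted p = 0.0556) were called.

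After MCAo averaged over genotypes on the abundant-gene scale, the tight junction membrane genes Ildr2, an angulin (0.90 ± 0.13), and Marveld1 (0.33 ± 0.090) were called higher and none of that list lower. Over all genes tested 1598 were called in this comparison, 1038 of them higher, and of the abundant genes 15.4%. Markers of other cells moved too, with 4 of 8 pericyte genes and 2 of 5 fibroblast genes called higher. So were 1 of 6 astrocyte genes, 1 of 6 oligodendrocyte genes and 1 of 4 platelet genes. The fibroblast genes summed to 15.4 to 17.8 CPM in CTRL sham and 22.2 to 35.7 CPM in CTRL MCAo (exact permutation p = 0.0286), and the pericyte genes to 757 to 936 and 717 to 1316 CPM (exact permutation p = 0.514). In YT-iKO the fibroblast sums were 15.67 to 47 CPM after sham and 19.43 to 47.56 CPM after MCAo (exact permutation p = 0.343). The pericyte sums there were 621.8 to 885.5 and 750.6 to 1132.9 CPM (exact permutation p = 0.314). Their part in the list values was not tested. Of the scaffold genes Magi1 was higher (0.58 ± 0.073) and Magi3 (−0.21 ± 0.051) and Arhgef18 (−0.19 ± 0.059) lower. Of the adherens junction genes 5 were higher and 1 lower, led by Nectin2 (0.85 ± 0.13), Nectin1 (0.63 ± 0.19), Pecam1 (0.36 ± 0.079) and Pkp4 (0.33 ± 0.056). The regulators held 4 genes called lower and none higher, Akap12 (−0.50 ± 0.11), Kdr, a receptor of VEGF (−0.25 ± 0.074), Rap1a (−0.21 ± 0.057) and Arhgap29 (−0.20 ± 0.059), and the barrier list 1, the lipid transporter gene Mfsd2a (−0.43 ± 0.11). The list medians were 0.30, 0.025, 0.057, −0.029 and −0.088, and those of the 9 genes and of all genes tested 0.096 and 0.11. On the all-gene scale Nectin2 (adjusted p = 0.0193) and Ildr2 (adjusted p = 0.0482) alone were called. In the comparisons within 1 genotype or 1 surgery at most 3 genes of a list passed in either direction with abundant-gene factors. For genotype after MCAo, 3 of 21 adherens junction genes, 3 of 27 regulators and 3 of 12 barrier genes were called lower. For MCAo in YT-iKO, 3 of 21 adherens junction genes were called higher. Of the abundant genes, 1.93% and 5.44% were called in these 2 comparisons, 1.19% for genotype after sham and 5.45% for MCAo in CTRL. No gene of the 5 lists was called for the interaction on either scale. The most abundant genes of the 5 lists were Ildr2, Cgnl1, Ptprb, Heg1 and Spock2, at 160, 1199, 4033, 1536 and 6326 CPM.

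**Figure D5:**
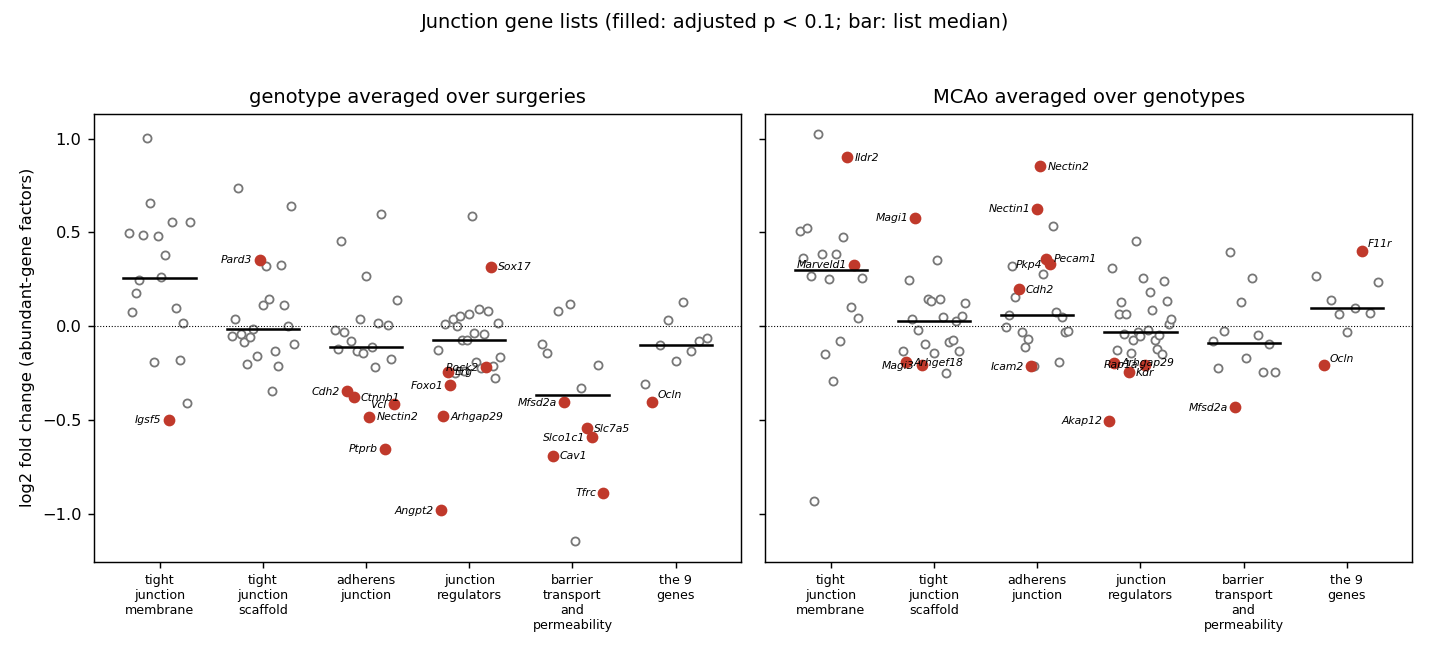
Log2 fold changes (abundant-gene factors) of the genes of 5 junction lists and of the 9 genes for genotype averaged over surgeries (left) and MCAo averaged over genotypes (right). Points are genes, filled and named where edgeR gave an adjusted p under 0.1, and bars are list medians. The barrier list has the lowest median on the left (−0.37) and Ocln is the only filled point among the 9 genes there.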

How the data were processed

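RNA of sorted bECs was amplified with a SMART-Seq Ultra Low Input kit, which keeps no strand and adds no molecular identifiers, and sequenced paired-end. The authors aligned reads with STAR 2.7.8a (GRCm38, GENCODE M12). Their deposited table gives unnormalized counts for each gene in 16 libraries; the counting program is not given in the sources used here. Here positions came from GENCODE M21 and promoter windows from RefSeq (GRCm38.p6). filterByExpr (minimum count 10, minimum total 15) kept 31085 of 37003 genes. R 4.3.3, edgeR 4.0.16 (quasi-likelihood, 4 groups in 1 model, adjusted p under 0.1, the study's threshold), DESeq2 1.42.0 and limma 3.58.1 were used, and edgeR was tested on simulated data. Adjusted p are Benjamini-Hochberg values over all genes tested. Exact permutation of log2(CPM + 1) served for single genes (70 assignments for 2 groups, 36 such tests a scale). Genes named were all 9, up to 4 called genes per list in each averaged comparison by size of change, the most abundant gene of each list and up to 3 of the most correlated genes, without those of Cdh5, which are not reported here. The genes, lists and tests were chosen with earlier results of these data known. Counting error only is covered by the depth; alternatives stand in the closing section.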

Additional observations from a re-analysis of the deposited data

Results flagged for a closer look

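Lsr in YT-iKO sham replicate 3 stood apart from its group on the all-gene scale, at 146 CPM against 217 to 230 CPM in the other 3 libraries. The gap to the nearest library was 0.846 of the group's range, above Dixon's 95% limit for 4 libraries. That library is one of the 5 with over 0.3 CPM per kb on receptor genes, and on the abundant-gene scale its value was 196 CPM against 201 to 228 CPM. This was the only such value among 72 groups of 4 (9 genes, 4 groups, 2 scales), where chance alone gives about 1 in 20.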

How the results depend on the processing

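With all-gene factors none of the 9 genes was called, also in each fit that left out 1 library (0 to 0 in all 7 comparisons). Abundant-gene factors gave 1 called gene for genotype after each surgery, 1 for MCAo in CTRL, 2 for MCAo averaged and 1 for genotype averaged. Scaling to the endothelial identity genes gave 1, 1, 1 and 1 in the comparisons of 2 groups, 2 for MCAo averaged and 6 for genotype averaged, and called 2355, 870 and 6712 of 31085 genes for genotype after sham, after MCAo and averaged. With that scaling Jam2 after sham (0.36) and, for genotype averaged, Tjp1 (0.17), Cldn12 (0.30), Esam (0.18) and Cdh5 (0.20) turned from lower to higher. limma-voom called 1 gene for MCAo in CTRL, 2 in YT-iKO, 3 averaged and 1 for genotype averaged, in fits that called 7538, 5626, 17018 and 746 genes, and turned Esam to −0.43 for MCAo in YT-iKO and −0.35 averaged. DESeq2 called 1 for genotype averaged, of 244 genes. Without the 2 libraries with the most receptor counts, chosen after seeing the data, 1 was called for MCAo averaged (F11r, of 1372 genes) and 1 for genotype averaged (Ocln, of 271). The cause was not tested.

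From the abundant-gene scale, the 1 call for genotype after sham, Ocln, became 0 without those 2 libraries, with a replicate block (adjusted p = 0.135) and at an adjusted p under 0.05. The call for MCAo in CTRL became 2 with DESeq2 and 0 at 0.05. The 0 calls for MCAo in YT-iKO became 1 with the replicate block (F11r, adjusted p = 0.0551) and 2 with DESeq2 (F11r and Ocln), the 2 for MCAo averaged 4 with DESeq2, and the 1 for genotype averaged 2 with the replicate block (Cldn5 added, adjusted p = 0.0949) and 3 with DESeq2 (Cldn5 and Lsr added). On this scale DESeq2 called 1132 genes of the whole table for MCAo in CTRL (554 with edgeR), 1067 in YT-iKO (534), 2412 averaged (1598) and 1291 for genotype averaged (552), and the replicate block 122 for genotype after sham (115), 575 for MCAo in YT-iKO and 592 for genotype averaged. Leaving out 1 library gave 0 to 1 calls for genotype after sham, MCAo in CTRL and MCAo in YT-iKO, 1 to 3 for MCAo averaged and 1 to 1 for genotype after MCAo and averaged. Over the whole table these fits called 61 to 128 genes for genotype after sham, 93 to 238 after MCAo and 369 to 582 averaged. They called 236 to 689 genes for MCAo in CTRL, 286 to 674 in YT-iKO and 1197 to 1815 averaged. As a ratio to the other 8 genes, Tjp1 for genotype averaged was 0.033 (exact stratified permutation p = 0.447). Its fold change on the abundant-gene scale was −0.099 (exact stratified permutation p = 0.0433). Replicate numbers were not taken to pair the libraries, since the labels name nothing that same-numbered libraries share. Same-numbered libraries were nonetheless more alike than others. On the all-gene scale 17 of 24 such pairs correlated above 0.1 (median 0.259, against −0.128 for other pairs). With abundant-gene factors 16 of 24 did (median 0.322, against −0.134). A spread shared by replicate number is thus left out of the fits without the block and of the permutation tests, and its source was not tested. Over the whole table, calls under the alternatives to the all-gene fit, apart from leaving out 1 library, ranged from 24 to 2355 for genotype after sham (30 in the fixed fit), 20 to 870 for genotype after MCAo (22), 48 to 7538 for MCAo in CTRL (67), 17 to 5626 for MCAo in YT-iKO (99), 275 to 17018 for MCAo averaged (383) and 61 to 6712 for genotype averaged (87). Leaving out 1 library gave 12 to 43, 11 to 47, 26 to 162, 37 to 203, 246 to 578 and 46 to 171 in the same order. Depth limits Cldn12 most, with 159 to 355 counts a library.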
